A study of Mus musculus with 6 samples.

Results

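The respiratory chain assembly factors are nuclear genes whose proteins help to build complexes I to V of the inner mitochondrial membrane but, with few exceptions, do not stay in the finished complexes. Their transcripts were measured by RNA sequencing in heart muscle cell preparations of mice. The members were the rows of the deposited table whose gene symbol was one of 42 names, and all 42 were found among 22063 genes. By the complex they serve, 14 belong to complex I, 4 to complex II, 6 to complex III, 16 to complex IV and 2 to complex V. Libraries came from 2 groups of wild-type mice with 3 libraries each. The AKG group was injected every day for 2 weeks with α-ketoglutarate, a metabolite of the mitochondrial matrix, at a dose of 300 mg per kg and day, and the Control group was injected with phosphate-buffered saline over the same time. Cardiomyocytes were isolated by the Langendorff method, that is, by digestion through the heart's own vessels. The labels give postnatal day 21 both for the injected mice and for the mice from which cells were taken, and they do not say whether a library held 1 mouse or several. The p-values therefore measure only the spread between these libraries, which may be technical.

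As background, each complex is put together from modules, and its metal centres, hemes and flavins have to be made and inserted in order. Complex I assembly factors build the membrane arm and the peripheral arm separately and join them. Complex II factors attach the flavin and insert iron-sulfur clusters, complex III factors mature cytochrome b and insert the Rieske iron-sulfur protein, complex IV factors supply heme A and copper to the catalytic subunits COX1 and COX2, and complex V factors hold subunits of the F1 head until they join. The heart relies on this machinery for nearly all of its energy, and inherited defects of several of these genes in humans cause cardiomyopathy.

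Total counts were 14402876 to 15315236 per AKG library and 16241120 to 17797368 per Control library. Of 6 atrial muscle markers, 5 (Sln, Myl7, Myl4, Mybphl and Bmp10) were abundant in AKG 1 and AKG 3 and near their Control levels in AKG 2. The atrial light chain gene Myl7 stood at 138, 1.12 and 88.0 CPM in AKG 1, 2 and 3 and at 0.810 to 4.15 CPM in Control. The remaining marker Nppa, the atrial natriuretic peptide gene, stood at 499.6, 453.9 and 720.04 CPM in AKG 1, 2 and 3 and at 85.7 to 138.6 CPM in Control, so that it was high in all 3 AKG libraries. Y-linked transcripts summed to 89.2, 50.4 and 39.0 CPM in AKG 1, 2 and 3 and to 168, 0.311 and 176 CPM in Control 1, 2 and 3. The sex make-up was therefore not equal in all libraries, and its part in the results was not tested. CPM is the usual library-size scaled count, here with effective library sizes from edgeR's TMM method, and it compares 1 gene between libraries. Of 8 markers of heart muscle cells fixed for this work, 6 were lower in AKG (median log2 fold change -0.80) and none was higher. The list did not fall evenly: Actc1 had a log2 fold change of -2.00, Pln one of -0.01 and Mybpc3 one of 0.08. Pln and Mybpc3 did not pass the test. The summed level of the 8 markers ranged from 27822 to 30763 CPM in AKG and from 58208 to 63043 CPM in Control. No marker of the list was near 0.

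After AKG, transcripts of the assembly factors were lower almost throughout. Of 42 members, 38 were lower and 1 was higher at an adjusted p under 0.05 in edgeR's quasi-likelihood test with Benjamini-Hochberg adjustment over 13117 genes. Over all tested genes 50.2% passed by the same rule, 25.2% lower and 25.0% higher. The median log2 fold change of the members was -0.80, against 0.00 for all tested genes. The largest fall was that of the complex II factor Sdhaf4 (log2 fold change -1.63), followed by the complex I factor Ndufaf1 (-1.58) and the complex III factors Lyrm7 (-1.42) and Uqcc2 (-1.39). The single rise was that of Nubpl, which delivers iron-sulfur clusters to complex I. Sdhaf3, Surf1 and Cox15 did not pass the test.

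All 42 members passed the filter on low counts, with 49 to 1475 counts per library. The AKG and Control values did not overlap for 39 members, where 59.2% of all tested genes had groups that did not overlap. A fall of at least 2-fold past the threshold was found for 13 members, a call made for 6.12% of tested genes, and another 21 had log2 fold changes between -1 and -0.5. All these changes are relative to the bulk of genes. When total counts were the scaling, all genes together had a median of 0.44, 24 members were lower and 3 higher (Nubpl, Surf1 and Cox15), and Ndufaf7, Acad9, Sdhaf3, Surf1 and Atpaf2 changed sign. In that fit 65.8% of tested genes passed the threshold, 9.13% lower and 56.6% higher. In bulk RNA, fewer cells of a type and less RNA per cell cannot be told apart. Most heart muscle cell markers fell in the same libraries, with the same median as the members, but Pln and Mybpc3 did not. The part of this fall in the result was not tested.

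**Figure D1:**
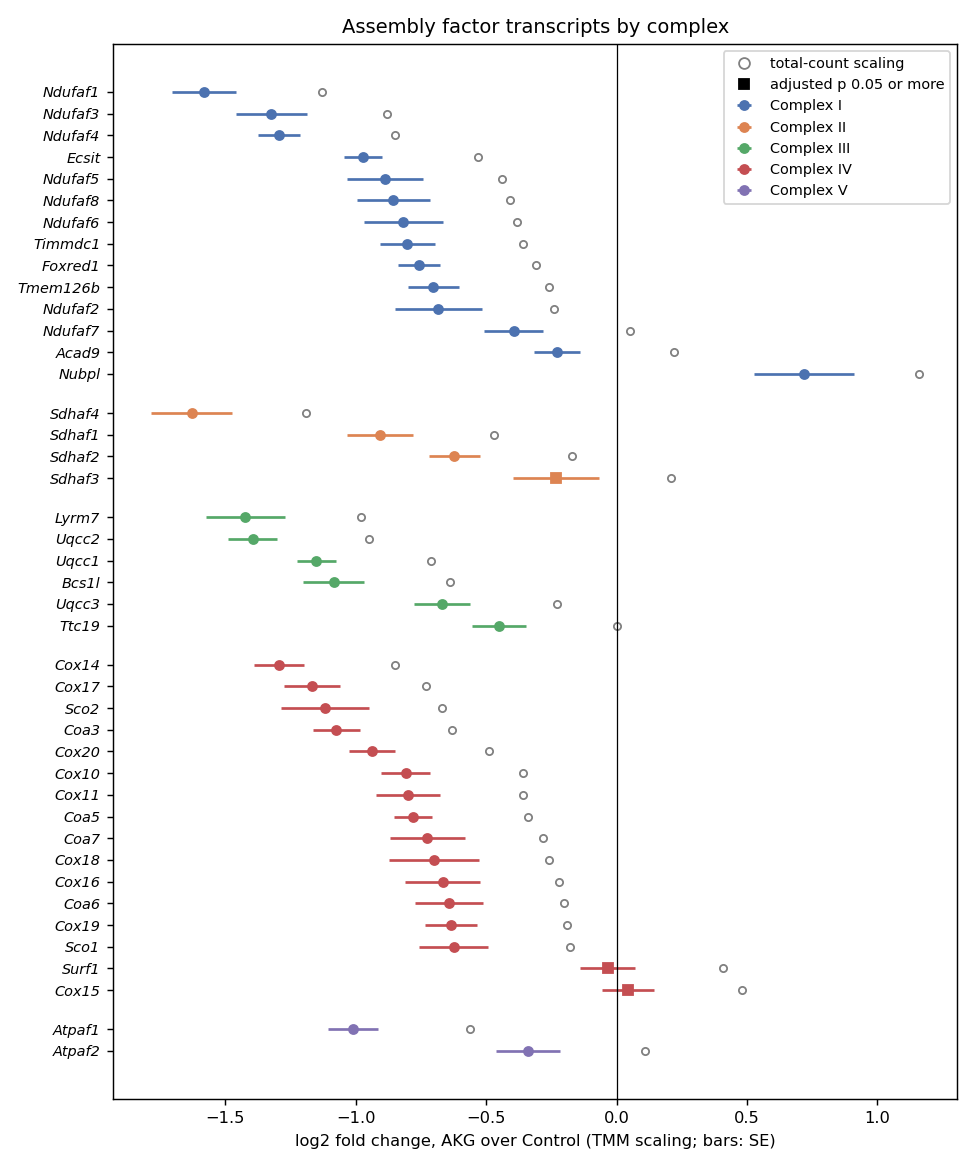
Log2 fold change of each of the 42 assembly factors, AKG over Control, by complex. Filled points with SE bars use TMM scaling (squares, adjusted p of 0.05 or more) and open circles use total counts as the scaling; 40 of 42 filled points lie below 0, and Nubpl is the point farthest above it.

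Promoter windows of 5 members are printed here. Ndufaf1 and Sdhaf4 had the largest falls of complexes I and II, and Uqcc2 was one of the most abundant members that fell. Surf1 did not pass the test, and Nubpl was the 1 that rose. The sequences are RefSeq windows on GRCm38.p6, from 250 bases before to 50 bases after the gene's start, read 5′ to 3′ on the gene's strand. Such a window was found for 37 members. Capitals mark matches to motifs of factors known for nuclear genes of respiration: GCGC and TGCGC with 1 base of any kind between them (nuclear respiratory factor NRF1) in Sdhaf4 and Uqcc2, CCGGAAG (the ETS factor GABP, also called nuclear respiratory factor NRF2) in Ndufaf1 and Surf1, and TGACGTCA (the cyclic AMP response element, CRE) in Nubpl.
Ndufaf1, chr2:119662785-119663084, minus strand: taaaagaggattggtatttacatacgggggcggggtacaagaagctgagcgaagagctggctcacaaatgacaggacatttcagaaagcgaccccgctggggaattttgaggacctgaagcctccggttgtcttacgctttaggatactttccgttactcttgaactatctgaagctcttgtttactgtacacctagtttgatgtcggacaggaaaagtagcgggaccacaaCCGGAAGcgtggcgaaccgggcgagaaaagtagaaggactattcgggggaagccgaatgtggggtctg
Sdhaf4, chr1:24005591-24005890, minus strand: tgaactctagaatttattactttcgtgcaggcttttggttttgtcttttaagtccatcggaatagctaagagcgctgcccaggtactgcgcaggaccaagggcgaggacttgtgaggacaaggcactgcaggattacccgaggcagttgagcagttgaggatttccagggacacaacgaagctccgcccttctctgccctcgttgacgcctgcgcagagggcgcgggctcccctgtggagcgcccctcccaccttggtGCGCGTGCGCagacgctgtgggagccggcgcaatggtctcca
Uqcc2, chr17:27133842-27134141, minus strand: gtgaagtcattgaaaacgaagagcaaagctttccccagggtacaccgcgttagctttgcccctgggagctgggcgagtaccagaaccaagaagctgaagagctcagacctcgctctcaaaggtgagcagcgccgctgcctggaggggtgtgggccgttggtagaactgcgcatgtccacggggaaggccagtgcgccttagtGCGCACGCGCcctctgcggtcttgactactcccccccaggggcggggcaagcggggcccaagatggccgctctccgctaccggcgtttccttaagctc
Surf1, chr2:26916481-26916780, minus strand: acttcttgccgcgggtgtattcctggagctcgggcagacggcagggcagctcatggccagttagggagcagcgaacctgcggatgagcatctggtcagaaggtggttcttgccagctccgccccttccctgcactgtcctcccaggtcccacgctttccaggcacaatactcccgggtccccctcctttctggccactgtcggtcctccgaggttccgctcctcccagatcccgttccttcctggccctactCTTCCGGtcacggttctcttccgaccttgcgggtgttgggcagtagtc
Nubpl, chr12:52097496-52097795, plus strand: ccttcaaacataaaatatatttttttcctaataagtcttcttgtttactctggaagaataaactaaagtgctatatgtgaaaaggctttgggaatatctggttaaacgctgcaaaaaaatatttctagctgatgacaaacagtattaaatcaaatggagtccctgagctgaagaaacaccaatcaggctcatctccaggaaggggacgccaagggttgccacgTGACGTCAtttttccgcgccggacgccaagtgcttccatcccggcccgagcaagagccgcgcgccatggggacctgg

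Each motif was searched on both strands. Matches of different motifs did not overlap, and within 1 motif only 2 GABP matches of Timmdc1 on opposite strands did. The 5 motifs were kept, after the members' values had been seen, from a larger number of patterns searched in the same windows, among them E-box, SP1 and PPAR elements. The GABP letters were found in 15 of 37 members with a window (40.5%), against 8.86% of all 32851 windows and 19.6% of tested genes. For the NRF1 letters it was 5 of 37 (13.5%), against 4.6% of all windows and 11.2% of tested genes. The YY1 letters AAGATGGCG occurred in 4 members (10.8%, against 1.40% of windows and 3.49% of tested genes), the CRE letters in 3 (8.11%, against 1.79% and 3.45%) and the estrogen-related receptor letters AAGGTCA in 1 (2.70%, against 4.72% and 3.80%). Members that fell and members that did not pass the test both carried the GABP letters: Surf1, Cox15 and Sdhaf3 are among the 15. Median GC content was 61.3% in the members' windows and 60.7% in windows of tested genes. A match is a description of these letters and not a binding site.

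Complex I factors fell with 1 exception. Of 14, 13 were lower and Nubpl was higher, with a median log2 fold change of -0.81. Ndufaf1, Ecsit, Acad9 and Tmem126b form, with Timmdc1, the module that builds the membrane arm, and all 5 were lower. Ndufaf1 stood at 12.3, 10.2 and 14.5 CPM in AKG 1, 2 and 3, against 35.0, 35.2 and 40.7 CPM in Control 1, 2 and 3 (adjusted p = 3.54e-07). The highest AKG library was far under the lowest Control library. Ecsit, which also acts in innate immune signalling, stood at 37.3, 39.2 and 39.7 CPM in AKG and at 77.4, 74.0 and 76.9 CPM in Control (log2 fold change -0.97, SE 0.07). Acad9, an acyl-CoA dehydrogenase relative that also works as an assembly factor, had the smallest fall of the 5, with 30.9, 34.6 and 36.8 CPM in AKG and 39.9, 39.2 and 40.7 CPM in Control. Its adjusted p was 0.0453, and it missed the threshold without any one of 5 libraries (0.172 without AKG 1, 0.0823 without AKG 2, 0.098 without Control 1, 0.0803 without Control 2 and 0.116 without Control 3). On FPKM its direction was opposite and past the threshold, with limma's log2 fold changes of 0.32 (adjusted p = 0.0191, pseudocount 1) and 0.35 (adjusted p = 0.0184, pseudocount 0.1).

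Ndufaf3 and Ndufaf4, partners that assemble the ubiquinone-binding module, were among the largest falls. Ndufaf4 stood at 24.0, 24.2 and 26.9 CPM in AKG, against 61.0, 62.1 and 60.9 CPM in Control (log2 fold change -1.29, SE 0.08, adjusted p = 5.21e-08). Ndufaf3 stood at 7.42, 6.27 and 7.21 CPM in AKG, against 17.6, 15.2 and 19.7 CPM in Control (-1.32, SE 0.13). Both pairs of groups were clearly apart. Ndufaf5 and Ndufaf8, which together hydroxylate a peripheral arm subunit, had log2 fold changes of -0.89 and -0.86, close to Ndufaf6 (-0.82) and to the flavoprotein Foxred1 (-0.76). The late factor Ndufaf2 followed at -0.68. Ndufaf7, an arginine methyltransferase of a peripheral arm subunit, fell least of these at -0.39 (adjusted p = 0.00963, and 0.0618 without Control 2).

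Nubpl was higher in every AKG library, at 5.85, 7.27 and 5.44 CPM, against 3.33, 3.79 and 4.12 CPM in Control. The log2 fold change was 0.72 (SE 0.19, adjusted p = 0.00668). It was the least abundant complex I factor, with 98 to 117 counts per AKG library and 49 to 61 per Control library. It stayed higher and past the threshold under each of the 16 alternatives.

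**Figure D2:**
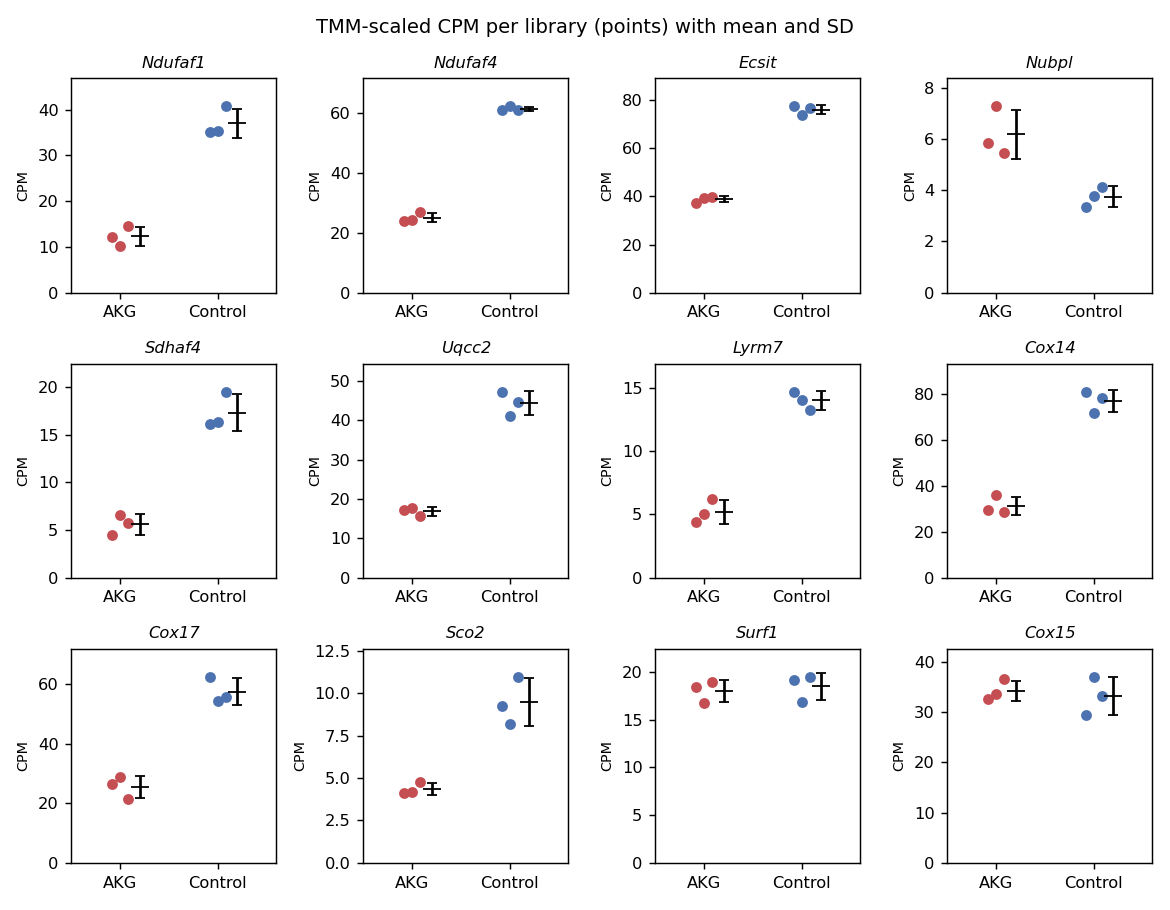
TMM-scaled CPM of 12 assembly factors in each library (points), with mean and SD over 3 libraries beside them. AKG values lie below Control values without overlap for 9 genes and above them for Nubpl, and the groups overlap for Surf1 and Cox15.

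Among the complex II factors, 3 of 4 were lower, with a median log2 fold change of -0.76. Sdhaf4, a chaperone of the flavin-carrying subunit SDHA, stood at 4.44, 6.59 and 5.77 CPM in AKG and at 16.1, 16.3 and 19.5 CPM in Control (log2 fold change -1.63, SE 0.15, adjusted p = 1.98e-06). Sdhaf1, which guides iron-sulfur clusters into SDHB, stood at 11.7, 13.1 and 9.65 CPM in AKG and at 23.4, 19.8 and 21.4 CPM in Control (-0.91, SE 0.13). Both groups were apart in each case. Sdhaf2, needed for attachment of the flavin to SDHA, fell by 0.62 on the log2 scale. Sdhaf3, which acts with Sdhaf1, had 4.78, 5.22 and 5.66 CPM in AKG and 6.33, 6.09 and 5.96 CPM in Control, a log2 fold change of -0.23 with an adjusted p of 0.261. Its groups did not overlap but lay close together.

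The 6 complex III factors were all lower, and their median log2 fold change of -1.12 was the lowest of the 5 complexes. Lyrm7, the matrix chaperone of the Rieske protein, stood at 4.38, 5.03 and 6.21 CPM in AKG, against 14.7, 14.0 and 13.3 CPM in Control (adjusted p = 5.18e-06). Bcs1l, the translocase that moves the folded Rieske protein across the membrane, fell by 1.09 on the log2 scale. Ttc19, which clears Rieske fragments, fell by 0.45. The 3 factors of cytochrome b fell by different amounts. Uqcc2 stood at 17.2, 17.8 and 15.6 CPM in AKG, against 47.3, 41.1 and 44.5 CPM in Control (log2 fold change -1.39, SE 0.09, adjusted p = 1.09e-07). Its partner Uqcc1 had a log2 fold change of -1.15 and the later factor Uqcc3 one of -0.67.

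Complex IV factors fell in 14 of 16 cases, and the 2 that did not pass the test were Surf1 and Cox15. The median log2 fold change was -0.75. Cox14 and Coa3 hold newly made COX1. Cox14 had the largest fall of the complex, with 29.6, 36.0 and 28.7 CPM in AKG and 81.1, 71.9 and 78.1 CPM in Control (log2 fold change -1.29, SE 0.09, adjusted p = 1.94e-07). Coa3 stood at 21.4, 20.1 and 19.6 CPM in AKG and at 43.3, 39.8 and 45.6 CPM in Control (-1.08, SE 0.09). In both, every AKG library was under every Control library. Surf1, which also acts at an early COX1 stage and is mutated in Leigh syndrome in humans, stood at 18.4, 16.7 and 18.98 CPM in AKG and at 19.1, 16.8 and 19.5 CPM in Control. Its groups overlapped (log2 fold change -0.03, SE 0.11, adjusted p = 0.805).

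The 6 factors of copper delivery were all lower, by a median of -0.72. Cox17, the chaperone that passes copper to Sco1, Sco2 and Cox11, stood at 26.4, 28.8 and 21.5 CPM in AKG and at 62.4, 54.2 and 55.6 CPM in Control (log2 fold change -1.17, SE 0.11, adjusted p = 1.50e-06). The paralogs Sco1 and Sco2 carry copper to COX2. Sco2 stood at 4.10, 4.16 and 4.77 CPM in AKG and at 9.26, 8.20 and 11 CPM in Control (-1.12, SE 0.17). Sco1 stood at 8.43, 7.39 and 7.82 CPM in AKG and at 12.9, 12.5 and 11 CPM in Control (-0.62, SE 0.13). Neither pair of groups overlapped, and the difference between the paralogs was not tested. Cox11, Coa6 and Cox19 had log2 fold changes of -0.80, -0.64 and -0.63.

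The 2 enzymes of heme A synthesis did not share a call. Cox10, which makes heme O, stood at 24.2, 27.6 and 29.5 CPM in AKG and at 50.3, 45.7 and 46.3 CPM in Control (log2 fold change -0.81, SE 0.09, adjusted p = 1.07e-05). Cox15, which turns heme O into heme A, stood at 32.5, 33.5 and 36.5 CPM in AKG and at 29.3, 37.0 and 33.1 CPM in Control (0.04, SE 0.10, adjusted p = 0.74). The groups were apart for Cox10 and overlapped for Cox15. The factors of COX2 membrane insertion and maturation Cox20, Cox18 and Cox16 fell by 0.94, 0.70 and 0.67 on the log2 scale. Coa5 (-0.78) and Coa7 (-0.73), the second a heme-binding protein, fell by similar amounts.

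Both complex V factors were lower. Atpaf1, which holds the β subunit of the F1 head, stood at 23.1, 24.7 and 26.2 CPM in AKG, against 46.1, 47.8 and 55.2 CPM in Control (log2 fold change -1.01, SE 0.09, adjusted p = 1.75e-06). Atpaf2, which holds the α subunit, stood at 15, 14.3 and 19.1 CPM in AKG, against 20.8, 18.9 and 21.7 CPM in Control, so that AKG 3 lay inside the Control range. Its log2 fold change was -0.34 with an adjusted p of 0.0343. Without a single library its adjusted p was 0.107 (AKG 1), 0.141 (AKG 2), 0.0922 (Control 1) and 0.117 (Control 3).

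Levels were compared between genes by the authors' FPKM, which is per transcript length. Means over the 6 libraries ranged from 1.31 for Sdhaf3 to 82.5 for Cox17, with a median of 12.0, and 26 members were above 10. Cox17 held 64.0, 67.9 and 55.3 FPKM in AKG and 109.8, 101.6 and 96.3 FPKM in Control. Cox20, the next, held 51.7, 45.8 and 49.4 FPKM in AKG and 67.8, 71.3 and 68.0 FPKM in Control. Uqcc2 held 39.96, 39.7 and 38.0 FPKM in AKG and 78.7, 74.4 and 74.5 FPKM in Control. The ranges of Uqcc2 and Cox20 overlap neither in AKG nor in Control, and their order is opposite in the 2 groups. Hnrnpu on the opposite strand covers 91.1% of the exon bases of Cox20, so the level of Cox20 and this order are uncertain. Across the 42 members, fold change and mean FPKM had a Spearman rho of -0.34, as a description of genes that share the same libraries. In the authors' deposited table, at a false discovery rate under 0.05, 34 members were lower and 3 had a ratio of FPKM means above 1 (Nubpl, Ndufaf7 and Ttc19). By the same rule 26.7% of all genes passed in the authors' deposited table, 10.4% lower and 16.3% higher. Direction here is that of the FPKM ratio, and the false discovery rate need not follow that ratio. Surf1 had a log2 ratio of 0.41 at a rate of 0.916, and Cox19 one of -0.05 at 8.69e-06. Ndufaf7 and Ttc19 were lower in the fit to counts, with log2 fold changes of -0.39 and -0.45.

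The structural subunits of the same complexes fell too. Of 78 tested nuclear subunit genes 74 were lower and 0 were higher, with a median log2 fold change of -1.07. For complex I the median was -0.81 for the assembly factors and -1.15 for 36 subunits, among them Ndufb3 and Ndufs8 (-1.69 and -1.53). For complex IV it was -0.75 for the factors and -0.98 for 14 subunits, with Cox7a1 at -2.44 and Cox7c at -1.16. For complex V it was -0.67 against -1.003 for 15 subunits, among them Atp5k (-1.34) and Atp5g1 (-1.36). For complex II it was -0.76 against -0.67 for 4 subunits (Sdhb -1.14, Sdhc -0.92, Sdhd -0.42 and Sdha -0.10), and for complex III -1.12 against -1.08 for 9 subunits (Uqcrfs1 -1.28, Uqcrq -1.39). Below the subunit median of their own complex lay 3 of 14 complex I factors, 2 of 4 of complex II, 4 of 6 of complex III, 4 of 16 of complex IV and 1 of 2 of complex V. The 4 subunit genes that did not pass the test were Sdha, Cox8a, Atp5b and Atp5g2, with log2 fold changes of -0.10, -0.18, -0.06 and -0.20. These differences between lists were not tested.

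The distance between factors and subunits was not equal in all libraries. Relative to each gene's mean over the 6 libraries, the median log2 CPM of the factors was -0.42, -0.39 and -0.41 in AKG 1, 2 and 3 and 0.41, 0.35 and 0.44 in Control 1, 2 and 3. For the subunits it was -0.58, -0.38 and -0.61 in AKG and 0.54, 0.44 and 0.61 in Control. The median of the factors minus that of the subunits was 0.17, -0.006 and 0.20 in AKG 1, 2 and 3, against -0.13, -0.09 and -0.17 in Control 1, 2 and 3. This distance has no zero of its own, since each gene was centred over the 6 libraries. It was higher in each AKG library than in any Control library, and nearest to Control in AKG 2. With AKG 2 alone against the 3 Control libraries the median log2 fold change of the members was -0.79.

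**Figure D3:**
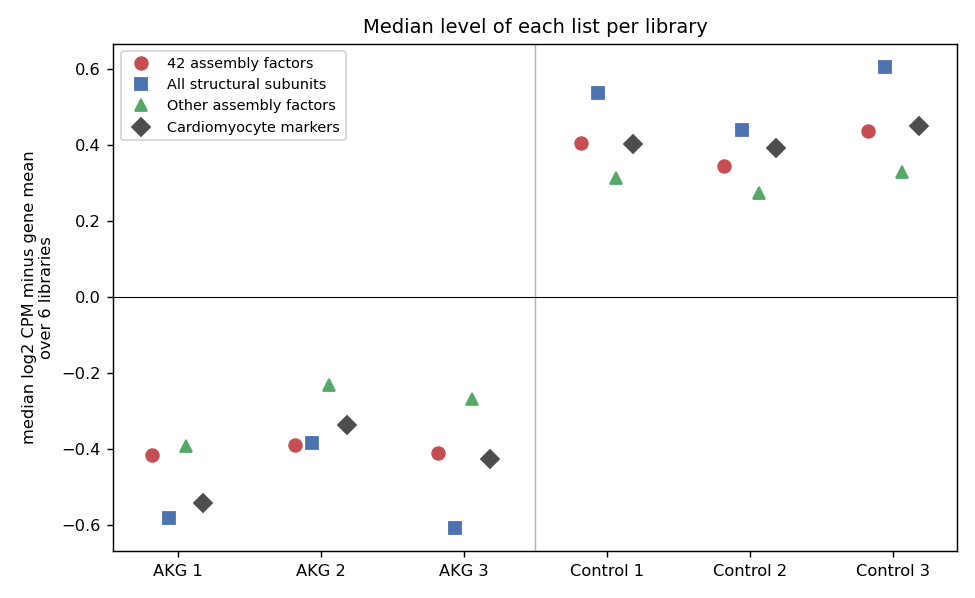
Median over genes of log2 CPM minus the gene's own mean over 6 libraries, for the 42 assembly factors, the structural subunits, a list of other assembly factors and heart muscle cell markers. The factors lie between -0.42 and -0.39 in AKG libraries and between 0.35 and 0.44 in Control libraries; the factors minus the subunits give -0.006 to 0.20 in AKG libraries and -0.17 to -0.09 in Control libraries.

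Further assembly factors outside the 42 were taken as a list from textbook knowledge, with earlier results of these data known. The list had 17 names, and 15 were found. Of 14 tested, 10 were lower and 0 were higher, with a median log2 fold change of -0.65. Cmc2, a complex IV factor, stood at 8.64 ± 1.202 CPM in AKG and 20.3 ± 0.92 CPM in Control (SD, n = 3 each). Tmem70, needed for complex V, stood at 31.1 ± 1.70 CPM in AKG and 51.6 ± 1.18 CPM in Control (SD, n = 3 each). Coa8, Cmc1, Smim20 and Tmem177 did not pass the test, with log2 fold changes of -0.13, 0.02, -0.07 and -0.16.

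Several assembly factor genes start head to head with another protein-coding gene. The same stretch of DNA lies before both, unless the genes overlap at their starts. Per the GENCODE M21 annotation 13 such pairs had starts within 1000 bases, and 12 neighbours had enough counts to be tested. Overlaps of up to 200 bases were allowed, and Surf1, Cox15 and Coa3 overlapped their neighbours. In 6 pairs the factor was lower and the neighbour did not pass the test, in 3 both were lower, in 1 the neighbour was higher and in 2 neither passed. Over all tested genes 25.2% were lower and 25.0% higher by the same rule. The share of lower neighbours was thus near that of any tested gene. Cox11 stood at 8.77, 7.52 and 7.99 CPM in AKG and at 14.4, 13.5 and 14.4 CPM in Control, and its neighbour Stxbp4 at 9.84, 8.51 and 8.82 CPM in AKG and 7.08, 9.07 and 10.9 CPM in Control. Only the factor's groups were apart. Coa5 stood at 51.4, 51.1 and 54.4 CPM in AKG and at 85.3, 91.6 and 92.8 CPM in Control, and its neighbour Unc50 at 14.1, 13.5 and 10.8 CPM in AKG and 13.4, 16.4 and 14.9 CPM in Control.

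Bcs1l and Zfp142 both fell, with log2 fold changes of -1.09 and -1.004. Neither Surf1 nor Surf2 passed the test (-0.03 and -0.11). Tmem126b and Dlg2, a synaptic scaffold gene, had log2 fold changes of -0.70 and 1.602. The ratio of factor to neighbour within a library does not depend on the scaling. It was lower on average in AKG in 11 of 12 pairs, and its groups did not overlap in 7 pairs (Ndufaf2, Ndufaf5, Ndufaf7, Tmem126b, Coa5, Cox11 and Sco1). For those 7 the exact two-sided permutation p was 0.1, the smallest that 3 libraries against 3 can give. No pair could therefore pass a threshold of 0.05, and this test cannot decide whether a ratio changed. After adjustment over the 12 pairs the permutation p of those 7 was 0.171. Taken singly, 59.2% of all tested genes had groups that did not overlap. No such share was computed for ratios of other gene pairs. Most of these factors were already known to be lower, so a lower ratio was likely beforehand. For Cox11 over Stxbp4 the log2 ratio was -0.16 ± 0.02 in AKG and 0.67 ± 0.32 in Control, and for Sco1 over Adprm it was 0.44 ± 0.09 in AKG and 1.13 ± 0.12 in Control (SD, n = 3 each).

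**Figure D4:**
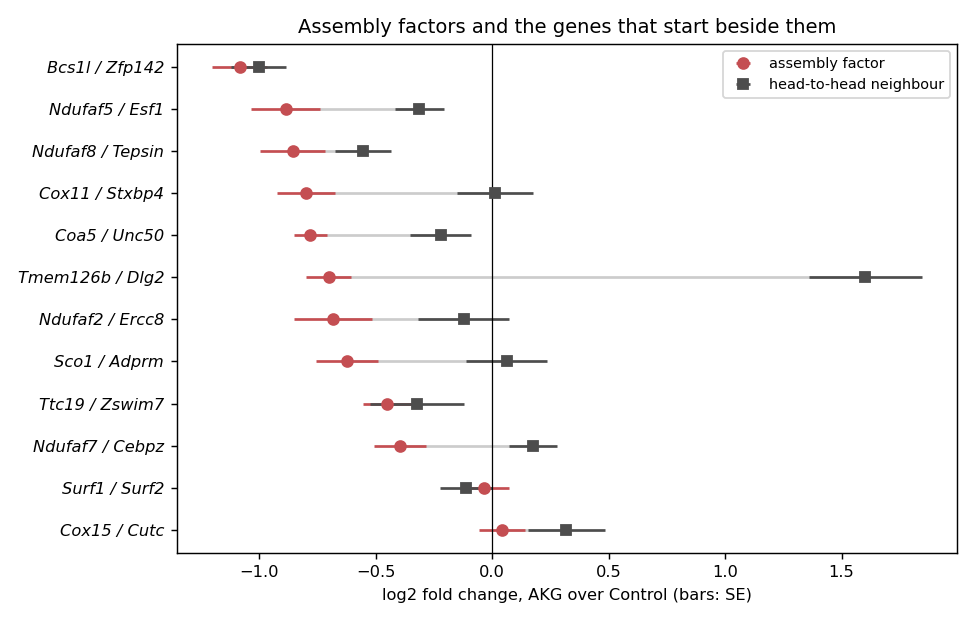
Log2 fold change with SE, AKG over Control, of 12 assembly factors (circles) and of the protein-coding genes that start head to head with them (squares). The factor lies left of its neighbour in 11 of 12 pairs, farthest for Tmem126b and Dlg2.

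Some members share exon sequence with other genes in that annotation, and strand use in the counting is not given in the sources used here. Hnrnpu, on the opposite strand, covers 91.1% of the exon bases of Cox20 and had 30619 counts over the 6 libraries beside 2710 for Cox20. Hnrnpu had a log2 fold change of 0.14 (adjusted p = 0.129). Ncaph2 and Tymp cover 66.2% and 68.3% of Sco2, Tom1l1 covers 48.3% of Cox11 and Gm20498 covers 56.8% of Cox16. The values of Cox20, Sco2, Cox11 and Cox16 are therefore uncertain. On the opposite strand E130208F15Rik covers 69.6% of Sdhaf1 and B230220B15Rik covers 65.6% of Ndufaf2. The first had 0 counts and none were used for the second. Smaller overlaps of other members are not listed. Atpaf1 and Cox20 also have near-identical copies, Gm14117 (100% over 843 bases) and Cox20b (97.2% over 355 bases), for which no counts were used here. Stretches of Ndufaf2 and Acad9 match transcripts that do have counts. For Ndufaf2, with 819 counts over the 6 libraries, these include Slc38a6 (95.4% over 282 bases, 20644 counts). For Acad9, with 3540 counts, they include Vps8 (95.2% over 460 bases, 2212 counts) and Olfr539 (96.5% over 979 bases, 924 counts). Reads of these 4 members could be split or shared, and their values are uncertain in that respect. Of the 5 overlapping partners Hnrnpu, Ncaph2, Tymp, Tom1l1 and Gm20498, none was lower past the threshold (log2 fold changes from -0.20 for Gm20498 to 0.98 for Tymp). Tymp (adjusted p = 0.0443) and Tom1l1 (log2 fold change 0.52, adjusted p = 0.00651) were higher past it. The part of shared reads in the values of Sco2 and Cox11 was not tested.

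Markers of other cell types were measured in the same libraries. Over all tested genes 25.2% were lower and 25.0% higher by the same rule. Of 8 fibroblast markers 2 were higher and 2 lower, no more than those shares, with sums of 2424 to 3204 CPM in AKG and 2619 to 3309 CPM in Control. Of 8 endothelial markers 3 were higher and 1 lower, at 1614 to 1887 CPM in AKG and 1505 to 1653 CPM in Control. Of 8 mural cell markers 1 was higher and 6 were lower, at 1317 to 1510 CPM in AKG and 2231 to 2446 CPM in Control. Of 8 macrophage markers 4 were lower, at 87.8 to 113 CPM in AKG and 134 to 207 CPM in Control. The 8 neutrophil markers summed to 6.86 to 12.6 CPM in AKG and 1.86 to 2.59 CPM in Control. The 4 with enough counts were higher. Of these, S100a9, Ngp and Mmp9 were near 0 in Control (means of 0.292, 0.155 and 0.241 CPM). They passed the count filter through the AKG libraries, so their direction was largely fixed by it. S100a8, Retnlg, Ly6g and Camp were not tested. The preparations thus held RNA of several cell types, and the part of any shift between them in the fall of the assembly factors was not tested.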

How the data were processed

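The authors deposited 1 table with whole-number counts per gene and library, and beside them FPKM values per library, group means of FPKM, a log2 fold change (the ratio of those means), a p-value and its false discovery rate. The submitters' processing notes name HISAT2 2.1.0, RSEM 1.2.19 and DESeq2 1.20.0; their roles, the build and the gene models are not given in the sources used here. FPKM is scaled to each library's total, so it shifts when abundant transcripts change.

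The deposited counts entered edgeR 4.0.16 (R 4.3.3): filterByExpr (minimum count 10, minimum total 15), TMM scaling and the robust quasi-likelihood test, AKG against Control, with Benjamini-Hochberg adjustment over 13117 genes and a threshold of 0.05, and gene-level adjusted p-values come from it. SE was taken as the absolute log2 fold change over the root of F. The script was tested on simulated data. Rows without a symbol (30) held at most 0.000112% of a library's counts. A floor of 3 counts equals 0.166 to 0.221 CPM; totals set the counting error only.

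The members and lists were chosen with earlier results of these data known. Values per library are given for members that rose, the largest falls of each complex (4 for complexes I and IV, 2 for the others), the 3 most abundant, the 3 with the smallest change, Sco1 and Sco2; falls had to have groups that do not overlap, which left 1 for complex V. Sdhaf3, Cox10, Atpaf2, the motifs and the head-to-head pairs were chosen after values were seen. Alternatives were other scalings and filters, DESeq2 1.42.0, limma 3.58.1 on log2(FPKM + 1) and log2(FPKM + 0.1), the replicate number as a block, leaving out each library, and AKG 2 alone. The 42 gene IDs were found in GENCODE M21 (GRCm38), used only for neighbours, overlap and similar transcripts.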

Additional observations from a re-analysis of the deposited data

How the results depend on the processing

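The count of lower members was 36 to 38 and that of higher members 1 when each library was left out in turn, with medians of -0.82 to -0.76 (complex I -0.86 to -0.74); over all genes 2751 to 3296 were higher and 2845 to 3243 lower. By complex the lower counts were then 11 to 13 (I), 3 (II), 6 (III), 14 (IV) and 1 to 2 (V). DESeq2, its size factors in edgeR and both other filters left 36 to 38 members lower and 1 higher. With AKG 2 alone, where the spread comes from the Control libraries only and AKG 2 is assumed to vary like them, 35 members were lower and 1 higher, beside 2728 higher and 2800 lower genes in all. Of the 38 lower members, 24 were lower and past the threshold under each of the 16 alternatives.

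Scaling by total counts gave 7430 higher and 1197 lower genes over the table, 24 members were lower and 3 higher, and the median of the members was -0.36 (complex I -0.37, II -0.32, III -0.67, IV -0.31, V -0.23); complex IV had 8 lower and 2 higher and complex V 1 lower. Total counts without mitochondrially encoded genes gave 4934 higher genes, medians of -0.62 in all and -0.63, -0.58, -0.94, -0.57 and -0.49 by complex, and 1 lower complex V factor. Mitochondrially encoded genes held 25.7% to 31.4% of counts in AKG libraries and 38.3% to 43.2% in Control libraries. DESeq2 also gave 1 lower complex V factor. Limma on log2(FPKM + 1) gave 7068 higher and 1178 lower genes, 4 higher members, a median of -0.33 (-0.34, -0.26, -0.63, -0.30 and -0.26 by complex), 2 higher complex I factors, 9 lower and 2 higher complex IV factors and 1 lower complex V factor. With a pseudocount of 0.1 these were 7072, 1177, 4, -0.36 (-0.37, -0.29, -0.67, -0.32 and -0.27), 2, 9, 2 and 1. These settings move the median of all genes by 0.18 (without mitochondrially encoded genes) to 0.44 (total counts). The cause of single changes was not tested. On FPKM the higher members were Nubpl, Acad9, Surf1 and Cox15 (for Cox15 limma's adjusted p was 0.00963 and 0.00897 with pseudocounts of 1 and 0.1). With either pseudocount Ndufaf2, Ndufaf7, Acad9, Tmem126b, Sdhaf2, Ttc19, Coa6, Coa7, Cox18, Cox19, Sco1 and Atpaf2 were no longer called lower.

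Some log2 fold changes changed sign. Past the threshold in the opposite direction was Acad9 on FPKM (adjusted p = 0.0191 and 0.0184 with pseudocounts of 1 and 0.1). Surf1, not past it before, was higher past it with total counts (adjusted p = 0.00592) and on FPKM (0.00757 and 0.00698). With total counts the values became 0.05 (Ndufaf7), 0.22 (Acad9), 0.21 (Sdhaf3), 0.41 (Surf1) and 0.11 (Atpaf2), and without mitochondrially encoded genes 0.15 (Surf1). On log2(FPKM + 1) they were 0.13 (Ndufaf7), 0.32 (Acad9), 0.12 (Sdhaf3), 0.00 (Ttc19), 0.38 (Surf1) and 0.15 (Atpaf2), and with a pseudocount of 0.1 they were 0.14, 0.35, 0.19, 0.40 (Surf1) and 0.16 (Atpaf2). Leaving out 1 library moved Surf1 between -0.10 and 0.02, with 0.02 without AKG replicate 2 and 0.00 without Control replicate 3, and Cox15 at 0.00 without AKG replicate 3 and -0.04 without Control replicate 1.

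The replicate numbers are known here only from the library names, and whether they mark pairs is open. Deviations of same-numbered libraries correlated at 0.181, -0.0568 and 0.0604, and not every library correlated best with its own number. These correlations do not settle it. With the replicate block 37 members were lower and 1 higher, and Acad9 (adjusted p = 0.0507) left the calls. Depth limits the rarest members, at 49 counts in a library.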
